A study of Mus musculus with 7 samples.

Results

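The 42 genes described here are those listed by symbol as interferon-induced genes and guanylate-binding GTPases. Of these, 41 had a row among the 16019 genes measured, and Mx1 did not. They were followed in RNA sequencing of prostates from mice with experimental autoimmune prostatitis (EAP). The 4 LIT-927 libraries came from EAP mice injected intraperitoneally with LIT-927, which neutralises the chemokine CXCL12 by binding to it and so blocks signalling through its receptor CXCR4, at 25 mg/kg per day. The 3 vehicle libraries came from EAP mice injected with methyl-β-cyclodextrin, the solvent. Injections went on for 14 days in both groups, so every animal had prostatitis and injections, and mice without prostatitis were not analysed here. The strain and age of the mice and the way prostatitis was induced are not stated in the labels. Whether the 7 samples are 7 separate animals is not said in the labels. The p-values therefore reflect only how far these samples spread, and that spread may be technical.

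Interferons bind receptors on the cell surface and act through JAK kinases and STAT transcription factors. Type I and III interferons bring STAT2 and IRF9 into a complex that binds interferon-stimulated response elements, whereas interferon-γ acts mainly at gamma-activated sites. The genes they induce encode sensors of foreign nucleic acid, enzymes that degrade RNA or block its translation, and large GTPases. In mice, the guanylate-binding proteins (GBPs) and the immunity-related GTPases (IRGs) attack the vacuoles of intracellular pathogens and are strongly induced by interferon-γ. In inflamed prostate the stroma, epithelium and infiltrating leukocytes can all respond to interferons.

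The values were FPKM, which count the fragments of a gene relative to its length and to the library's total, and the recovered fragments summed to 32023785 to 35240765 per library. The prostate secretory marker Pbsn was present in every library but spread widely, over 129 to 8963 FPKM in LIT-927 libraries and over 1283 to 11311 FPKM in vehicle libraries. Transcripts of the seminal vesicle were abundant throughout, with 7 markers summing to 142306 to 299696 FPKM in LIT-927 libraries and to 50975 to 550007 FPKM in vehicle libraries. The replicate 3 library of each group stood apart in the urothelial marker Upk1a. Upk1a stood at 253 FPKM in LIT-927 replicate 3 and 172 FPKM in vehicle replicate 3, against at most 10.1 FPKM in the other 5 libraries. The replicate 3 libraries were the 2 highest in 4 of 5 urothelial markers. The exception was Upk1b, at 19.7 FPKM in LIT-927 replicate 3 and 27.3 FPKM in LIT-927 replicate 4. They were also the 2 highest in 3 of 6 prostate luminal markers. Among these, Sbp stood at 114916 FPKM in LIT-927 replicate 3 and 53139 FPKM in vehicle replicate 3. The counts of members with separate groups, and of members at an unadjusted p under 0.05, are given with and without both replicate 3 libraries. Most values of single genes, and the ratios, are given only with them.

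No gene passed an adjusted p of 0.05 (limma on log2(FPKM + 1), Benjamini-Hochberg adjustment over all 16019 genes), which is 0% of the genes tested. The adjusted p of every member lay between 0.998 and 0.999. At an unadjusted p under 0.05, 474 genes passed with lower and 115 with higher values in LIT-927, and voom on recovered fragments also called 0 genes. Of the 41 members, 7 passed that unadjusted threshold with lower values in LIT-927, against 2.96% of all genes, and 0 passed it with higher values, against 0.718% of all genes. The 7 were Gbp2, Gbp3, Gbp5, Gbp6, Gbp7, Zbp1 and Irgm2. By the difference of mean log2(FPKM + 1), LIT-927 minus vehicle, 36 members (87.8%) were lower, against 44.5% of all genes. The median difference was -0.37 over the members and 0.02 over all genes. In 7 members every LIT-927 library lay below every vehicle library, against 2.12% of all genes, and in 0 members every LIT-927 library lay above, against 1.08%. These 7 were the 6 GBPs and Zbp1. With the libraries scaled by the median of ratios, the count was 8 against 4.99% of all genes, and it comprised the same 6 GBPs with Ifit2 and Xaf1 in place of Zbp1. Without both replicate 3 libraries, 21 of the 41 members had every remaining LIT-927 library below every remaining vehicle library, against 5.2% of all genes.

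**Figure D1:**
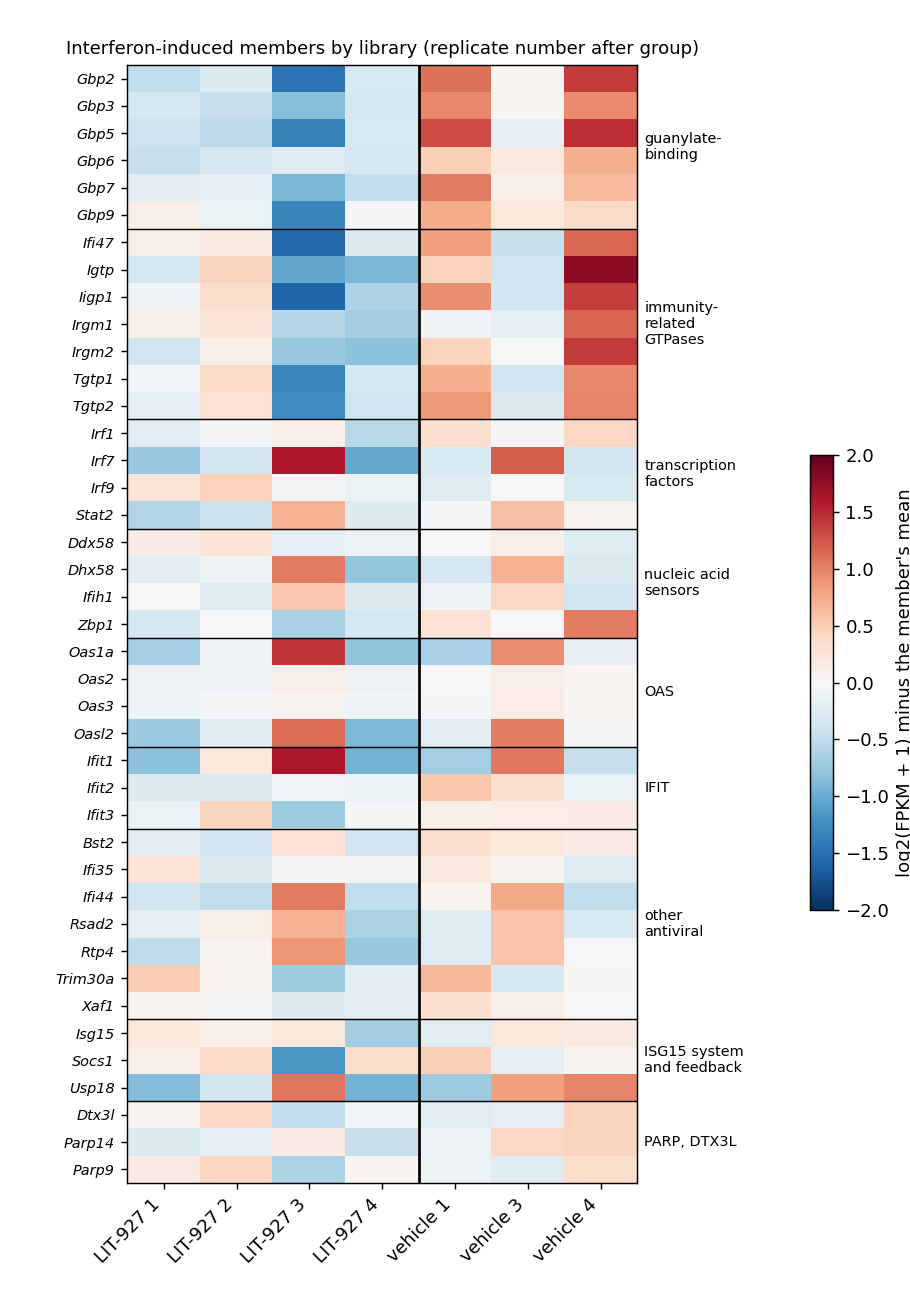
Each of the 41 measured members (rows, by role) in each library (columns), as log2(FPKM + 1) minus the member's mean over the 7 libraries, on a colour scale from -2 to 2. The GBP rows are lower in the 4 LIT-927 libraries than in the 3 vehicle libraries, the IRG rows are highest in vehicle replicate 4, and a set of rows led by Irf7 is high in the replicate 3 library of both groups.

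The GBPs were the role group with the lowest median difference. All 6 had a lower mean in LIT-927, with a median difference of -1.09 on the log2(FPKM + 1) scale, and their LIT-927 means were 19.8% (Gbp5) to 49.4% (Gbp9) of the vehicle means in FPKM. GBPs bind guanine nucleotides, assemble on the membranes of pathogen vacuoles and bacteria, and promote inflammasome activation. The genes lie in 2 clusters in GRCm38 (GENCODE M21), with Gbp5, Gbp7, Gbp3 and Gbp2 within chr3:142493978-142638008 and Gbp9 and Gbp6 within chr5:105077630-105293698. RefSeq promoter windows (GRCm38.p6, 250 bases before to 50 after the gene start) were at hand for Gbp2, Gbp3, Gbp5 and Gbp7. All 4 held the core of an interferon-stimulated response element on one strand or the other, searched as GAAA, any 2 bases and GAAA and called the paired GAAA motif here. Of the 27025 genes in the promoter table, 3.99% held it. Stretches of 60 bases are shown for 3 of them because they place this shared motif, in capitals, close to the gene starts. They run 5′ to 3′ on the strand of the gene.
Gbp2 promoter, chr3:142620579-142620638, + strand: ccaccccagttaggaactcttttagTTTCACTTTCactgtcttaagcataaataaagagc
Gbp3 promoter, chr3:142559977-142560036, + strand: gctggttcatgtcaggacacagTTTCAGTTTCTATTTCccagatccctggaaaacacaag
Gbp7 promoter, chr3:142530258-142530317, + strand: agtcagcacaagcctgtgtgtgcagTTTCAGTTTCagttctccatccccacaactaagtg
In all 3 windows the motif lies on the opposite strand, so that it reads as paired TTTC, and in Gbp3 the capitals cover 2 overlapping matches.

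Gbp2, the most abundant GBP, had 4.05, 4.82, 1.54 and 4.74 FPKM in LIT-927 replicates 1 to 4, against 14.1, 6.30 and 17.7 FPKM in vehicle replicates 1, 3 and 4. The groups did not overlap, and the replicate 3 library was the lowest of its group on both sides. The mean was 3.79 ± 1.54 FPKM in LIT-927 (SD, n = 4) and 12.7 ± 5.81 FPKM in vehicle (SD, n = 3), a difference of -1.48 on the log2(FPKM + 1) scale (SE 0.43, 95% interval -2.48 to -0.49, limma adjusted p = 0.998). Gbp5, which takes part in activation of the NLRP3 inflammasome, had 1.36, 1.19, 0.227 and 1.53 FPKM in LIT-927, against 6.76, 1.76 and 7.75 FPKM in vehicle. Its groups were also separate, by a narrow gap at vehicle replicate 3, and LIT-927 minus vehicle in log2(FPKM + 1) gave -1.52 (SE 0.46, limma adjusted p = 0.998).

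Gbp6 had the smallest p of any member, ranked 9 among all genes. It had 0.461, 0.579, 0.690 and 0.604 FPKM in LIT-927, against 1.79, 1.31 and 2.30 FPKM in vehicle, resting on 70 to 103 and on 207 to 378 fragments. Its means were 0.583 ± 0.0947 FPKM in LIT-927 (SD, n = 4) and 1.80 ± 0.494 FPKM in vehicle (SD, n = 3). It was the 1 GBP in which LIT-927 replicate 3 was not the lowest library. The difference was -0.81 on the log2(FPKM + 1) scale (SE 0.16, 95% interval -1.19 to -0.43, limma adjusted p = 0.998). With each library weighted by its spread, 466 genes (2.91%) passed, and Gbp6 was the single member among them (limma adjusted p = 0.0487, against 0.998 without weights). In that fit vehicle replicate 3 carried 84.7% of the weight of the vehicle group, so it comes close to a comparison with 1 vehicle library, and weights estimated by another method (REML) did not converge. Of the 75-base stretches of the Gbp6 transcript, 55.2% also occur in transcripts of other genes, mostly Gm43302, so its level is uncertain wherever the counting could split such fragments.

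Gbp3 had 1.37, 1.17, 0.644 and 1.37 FPKM in LIT-927, against 4.79, 2.08 and 4.70 FPKM in vehicle, with a difference in log2(FPKM + 1) of -1.14 (SE 0.30). Gbp7 had 1.43, 1.52, 0.504 and 1.02 FPKM in LIT-927, against 4.83, 2.03 and 3.36 FPKM in vehicle, with a difference in log2(FPKM + 1) of -1.04 (SE 0.30). Both were separate between the groups, with vehicle replicate 3 as the nearest vehicle library. Gbp9 had 2.37, 1.78, 0.245 and 1.97 FPKM in LIT-927, against 4.14, 2.53 and 3.01 FPKM in vehicle. Its groups were separated by the smallest margin of the 6, between LIT-927 replicate 1 and vehicle replicate 3, and its difference in log2(FPKM + 1) was -0.78 (SE 0.38, limma unadjusted p = 0.0729). The separation of all 6 also held under median-of-ratios and upper-quartile scaling, and their differences stayed below 0 in every alternative run. The sizes moved, from -2.22 to -0.50 for Gbp5, -1.89 to -0.65 for Gbp2, -1.65 to -0.56 for Gbp3, -1.62 to -0.52 for Gbp7, -1.56 to -0.65 for Gbp6 and -1.28 to -0.29 for Gbp9. All 6 were smallest with library weights.

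**Figure D2:**
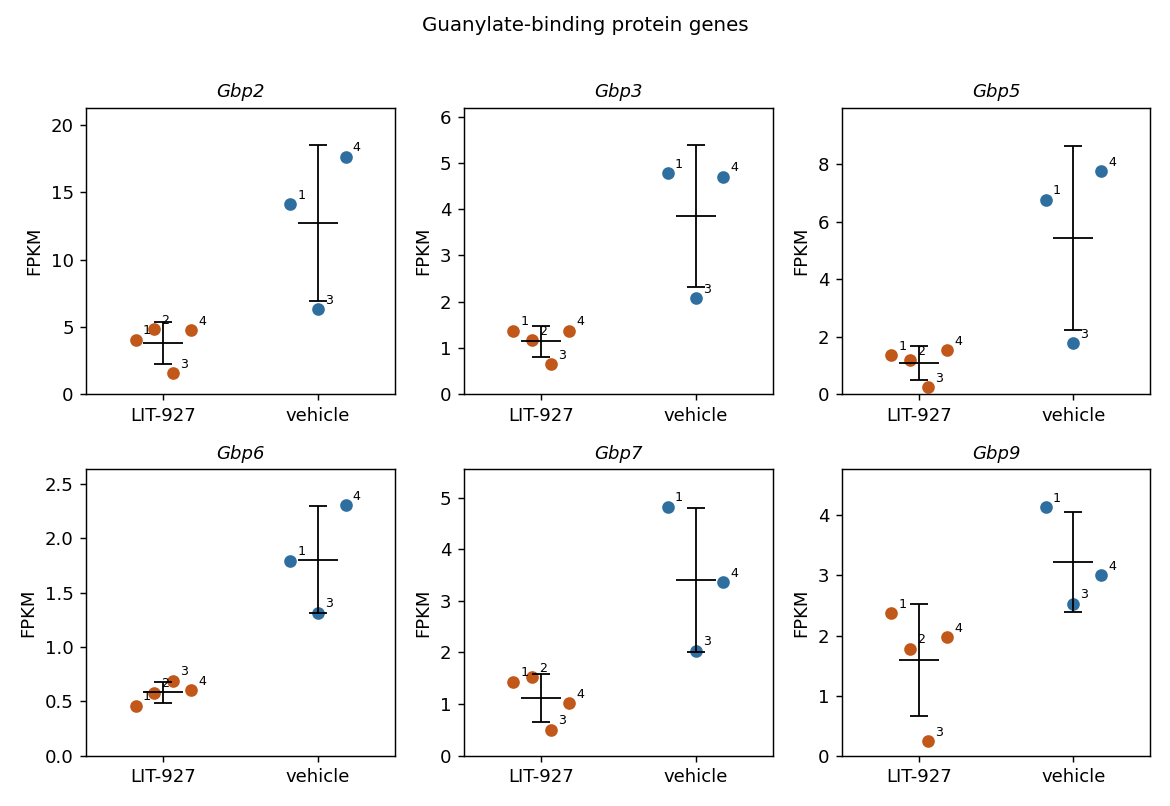
FPKM of the 6 GBP members in each library (points, numbered by replicate) for LIT-927 and vehicle, with the mean (long line) and SD (whiskers). In every panel the 4 LIT-927 points lie below the 3 vehicle points, and vehicle replicate 3 is the lowest vehicle point.

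The IRGs followed as the role group with the next lowest median, -0.90 on the log2(FPKM + 1) scale, with all 7 lower by mean in LIT-927 but 0 of 7 separate between the groups. Vehicle replicate 4 was the highest of all libraries in 7 of 7 IRGs, against 412 of all 16019 genes. LIT-927 replicate 3 was the lowest in 5 of 7 IRGs, against 30.6% of all genes. IRGs coat and rupture vacuoles that hold intracellular parasites and bacteria, while the IRGM members hold the other IRGs off host membranes. Igtp and Irgm2 lie within chr11:58199556-58222782, with overlapping annotations, and Irgm1, Tgtp1, Tgtp2 and Ifi47 lie within chr11:48861968-49096974. Of the 6 IRGs with a promoter window, 5 held the paired GAAA motif. In 4 of them it stood with TTCNNNGAA, the core of a gamma-activated site, a combination found in 0.54% of all genes in the promoter table. The combination was not particular to IRGs: 2 of the 4 GBPs with a window held it, as did 8 of 31 members (25.8%). In the 4 IRGs with both, Igtp, Irgm2, Tgtp1 and Tgtp2, the motifs stood in the same order on the gene's strand, with their first bases 11 bases apart. The stretches are shown because this arrangement is shared, with TTCNNNGAA and then the paired GAAA motif in capitals.
Igtp promoter, chr11:58199491-58199550, + strand: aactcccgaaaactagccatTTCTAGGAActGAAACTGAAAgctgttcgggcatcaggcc
Irgm2 promoter, chr11:58214882-58214941, + strand: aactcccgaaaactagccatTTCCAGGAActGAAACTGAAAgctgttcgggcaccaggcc
Tgtp1 promoter, chr11:48992295-48992354, - strand: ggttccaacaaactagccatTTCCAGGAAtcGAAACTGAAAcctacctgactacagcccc
Tgtp2 promoter, chr11:49064254-49064313, - strand: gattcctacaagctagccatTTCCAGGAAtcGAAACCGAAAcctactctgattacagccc
This arrangement occurred in 5 genes (0.0185%) of the table, these 4 and Gm12185, and bases around the motifs are shared as well. It was looked for after the matches had been seen. Gm12185 rested on 1 to 9 fragments in LIT-927 libraries and on 8 to 36 in vehicle libraries. A motif match describes the letters in the window and not the binding of any factor.

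Igtp, the most abundant IRG by mean, had 8.85, 16.1, 5.13 and 5.66 FPKM in LIT-927, against 16.2, 8.51 and 42.4 FPKM in vehicle. The groups overlapped at vehicle replicate 3, and vehicle replicate 4 was far above every other library. Means were 8.92 ± 5.03 FPKM in LIT-927 (SD, n = 4) and 22.4 ± 17.8 FPKM in vehicle (SD, n = 3), a difference of -1.08 on the log2(FPKM + 1) scale (SE 0.56, 95% interval -2.38 to 0.22, limma adjusted p = 0.998). Irgm2, an IRGM-type regulator, had 3.41, 5.33, 2.44 and 2.29 FPKM in LIT-927, against 6.94, 4.85 and 14.3 FPKM in vehicle. Only LIT-927 replicate 2 reached into the vehicle range, and LIT-927 minus vehicle in log2(FPKM + 1) gave -1.08 (SE 0.39, limma adjusted p = 0.998, unadjusted p = 0.0263). Iigp1, an effector that is loaded onto parasite vacuoles, had 3.17, 4.62, 0.440 and 1.85 FPKM in LIT-927, against 7.35, 2.36 and 10.5 FPKM in vehicle.

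Iigp1 overlapped between the groups at vehicle replicate 3, and its difference in log2(FPKM + 1) was -1.13 (SE 0.58). Tgtp2 had 1.67, 2.68, 0.288 and 1.29 FPKM in LIT-927, against 4.48, 1.48 and 4.95 FPKM in vehicle, with a difference in log2(FPKM + 1) of -0.90 (SE 0.45). Tgtp1 and Tgtp2 share 87.7% and 85.2% of their 75-base stretches with other transcripts, so their separate levels are uncertain. The differences of the remaining members Ifi47, Tgtp1 and Irgm1 were -0.89, -0.75 and -0.52 in log2(FPKM + 1). With library weights 4 of the 7 IRGs turned above 0, Ifi47 at 0.22, Tgtp1 at 0.16, Irgm1 at 0.06 and Iigp1 at 0.01. Without both replicate 3 libraries, 6 of 7 IRGs had every remaining LIT-927 library below every remaining vehicle library. The same held for 6 of 6 GBPs and for 5.2% of all genes.

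Of the 4 transcription factors, 3 had a lower mean log2(FPKM + 1) in LIT-927 and 1 a higher one, and all 4 overlapped between the groups. Stat2 encodes the subunit that carries the activation domain of the type I interferon complex. It had 5.03, 5.81, 13.9 and 6.57 FPKM in LIT-927, against 8.02, 12.8 and 8.69 FPKM in vehicle, with the replicate 3 libraries highest in both groups and a difference in log2(FPKM + 1) of -0.37 (SE 0.35). Irf1, an activator of GBP genes, had 6.95, 7.94, 8.85 and 5.27 FPKM in LIT-927, against 10.6, 8.06 and 11.3 FPKM in vehicle. LIT-927 replicate 3 alone reached into the vehicle range, and the difference in log2(FPKM + 1) was -0.42 (SE 0.23).

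Irf7, the main amplifier of interferon-α production, had 4.64, 6.35, 27.9 and 3.67 FPKM in LIT-927, against 6.68, 21.1 and 6.40 FPKM in vehicle. The replicate 3 library was the highest of its group on both sides, and the difference in log2(FPKM + 1) was -0.32 (SE 0.69). Without LIT-927 replicate 3 it was -0.90, and without vehicle replicate 3 it was 0.20. Irf9, the DNA-binding subunit of the type I interferon complex, had 19.4, 22.4, 15.6 and 14.4 FPKM in LIT-927, against 13.3, 16.0 and 12.7 FPKM in vehicle. It was the member with a difference above 0 in every alternative run, 0.32 in log2(FPKM + 1) (SE 0.21, 95% interval -0.17 to 0.82, limma adjusted p = 0.998), but its groups overlapped.

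The nucleic acid sensors did not share a direction. Zbp1, a sensor of left-handed nucleic acid that can trigger necroptosis, had 0.453, 0.821, 0.173 and 0.438 FPKM in LIT-927, against 1.25, 0.847 and 2.78 FPKM in vehicle. Its groups were separate in FPKM, by a margin of LIT-927 replicate 2 and vehicle replicate 3 that vanished under both scalings, and LIT-927 minus vehicle in log2(FPKM + 1) gave -0.78 (SE 0.26, limma adjusted p = 0.998). Ddx58, which encodes the RNA sensor RIG-I, was the most abundant sensor, with 4.98, 5.48, 3.69 and 3.91 FPKM in LIT-927, against 4.39, 4.86 and 3.47 FPKM in vehicle. Its difference in log2(FPKM + 1), 0.07 (SE 0.23), was smaller than its error. Ifih1, which encodes the RNA sensor MDA5, and Dhx58, which encodes their regulator LGP2, differed by 0.01 and -0.03 in log2(FPKM + 1).

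All 4 members of the OAS family, whose products make the 2′-5′ oligoadenylate that activates RNase L or are related to those that do, were highest in the 2 replicate 3 libraries. This was so for 12 of the 41 members, against 8.58% of all genes. Oasl2 had 1.76, 2.84, 9.03 and 1.48 FPKM in LIT-927, against 2.98, 8.34 and 3.49 FPKM in vehicle, with a difference in log2(FPKM + 1) of -0.45 (SE 0.55). Its groups overlapped because of the replicate 3 library of LIT-927. Oas1a differed by -0.07 in log2(FPKM + 1), and 47.6% of its stretches also occur in Oas1g. Oas2 and Oas3 stayed under 1 FPKM in every library, at 9 to 34 and 7 to 23 fragments in LIT-927 libraries and 21 to 37 and 12 to 38 in vehicle libraries. At this depth only a large change could show. Their differences in log2(FPKM + 1) were -0.10 and -0.09, on a scale that understates the change of low genes. Over the alternatives Oas2 ranged from -0.96 to -0.06 and Oas3 from -0.97 to -0.04.

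Of the IFIT family, whose products bind RNA and restrain its translation, Ifit3 was the most abundant and shares 41.1% of its stretches, all with Ifit3b. It had 2.96, 4.93, 1.65 and 3.28 FPKM in LIT-927, against 3.74, 3.85 and 3.89 FPKM in vehicle. The LIT-927 libraries fell on both sides of the narrow vehicle range, and the difference in log2(FPKM + 1) was -0.26 (SE 0.30). Ifit2 had 1.29, 1.27, 1.69 and 1.55 FPKM in LIT-927, against 3.06, 2.49 and 1.55 FPKM in vehicle. It overlapped at vehicle replicate 4 in FPKM and was separate once scaled, with a difference in log2(FPKM + 1) of -0.44 (SE 0.22, limma adjusted p = 0.998). Ifit1 differed by 0.05 in log2(FPKM + 1) and belonged to the members that were high in both replicate 3 libraries.

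Among the other antiviral effectors, Bst2, which encodes the virus-tethering protein tetherin, was the most abundant. It had 27.8, 24.7, 40.0 and 24.4 FPKM in LIT-927, against 40.8, 37.9 and 36.3 FPKM in vehicle. LIT-927 replicate 3 alone reached into the vehicle range, and the difference in log2(FPKM + 1) was -0.41 (SE 0.22). Rsad2 (viperin), Ifi35, Ifi44, Rtp4, Trim30a and Xaf1 all overlapped between the groups in FPKM, with differences between -0.26 (Xaf1) and 0.01 (Ifi35). Of the ubiquitin-like modifier Isg15, LIT-927 libraries held 8.62, 7.89, 8.57 and 4.10 FPKM, against 6.17, 8.60 and 8.40 FPKM in vehicle. The groups overlapped, and the difference in log2(FPKM + 1) was -0.10 (SE 0.29).

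Usp18, which encodes the protease that removes ISG15 and damps the type I receptor, and Socs1, an inhibitor of JAK kinases, overlapped between groups, with differences of -0.64 and -0.19 in log2(FPKM + 1). Parp9, which encodes an inactive ADP-ribosyltransferase that partners DTX3L, had 14.5, 17.7, 7.87 and 13.2 FPKM in LIT-927, against 11.8, 10.7 and 16.6 FPKM in vehicle. Its difference in log2(FPKM + 1) was -0.00 (SE 0.29), with the groups mixed. Dtx3l, whose gene overlaps Parp9 on the other strand, and Parp14 differed by -0.03 and -0.45 in log2(FPKM + 1), and whether the counting used strand is not stated, so their reads may be mixed. Over the 28 members that are neither GBP nor IRG, 23 were lower by mean in LIT-927, with a median difference of -0.19.

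**Figure D3:**
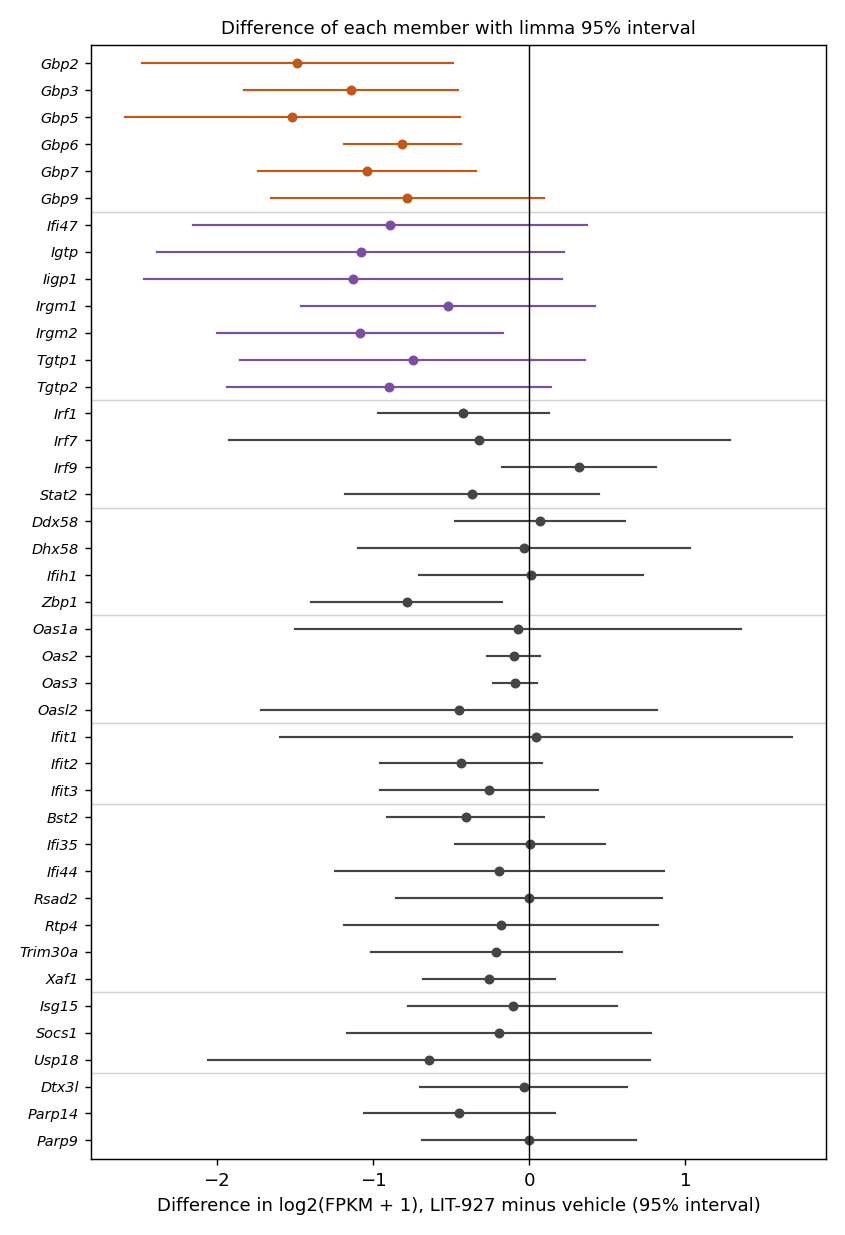
Difference of mean log2(FPKM + 1), LIT-927 minus vehicle, for each of the 41 members (points) with limma's 95% interval (lines), ordered by role with GBPs in orange, IRGs in purple and the others in grey. The intervals of Gbp2, Gbp3, Gbp5, Gbp6, Gbp7, Irgm2 and Zbp1 lie below 0, and the remaining 34 cross it.

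The members split by how they stood in the replicate 3 libraries, a grouping made after the values were seen. In 12 members (29.3%, against 7.27% of all genes) the replicate 3 library held at least 1.5 times the mean of the other libraries of its group, in both groups. They were Stat2, Irf7, Ifih1, Dhx58, Oas1a, Oas2, Oas3, Oasl2, Ifit1, Rsad2, Ifi44 and Rtp4. In 13 other members (31.7%, against 14.0% of all genes) the other libraries held at least 1.5 times the replicate 3 library in both groups, among them 4 of the 6 GBPs and 6 of the 7 IRGs. The remaining 3 of the 13 were Zbp1, Trim30a and Socs1. Between the 2 replicate 3 libraries, 10 of the 12 were higher in LIT-927 than in vehicle, with a median of 121% of the vehicle library. In the same libraries, 0 of 6 GBPs and 0 of 7 IRGs were higher in LIT-927, with medians of 24.6% and 19.4% of the vehicle library. This sets 1 library against 1, and the 12 were chosen for being high in both. The share over all genes was not computed. The values are unscaled, with median-of-ratios factors of 0.813 for LIT-927 replicate 3 and 1.08 for vehicle replicate 3.

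The paired GAAA motif was not particular to GTPase genes. Windows are shown for Ifit1 and Oas1a, which were high in both replicate 3 libraries, and for Isg15, which was not, since the motif, in capitals, occurs in all of them and in the GBPs above.
Ifit1 promoter, chr19:34640769-34640828, + strand: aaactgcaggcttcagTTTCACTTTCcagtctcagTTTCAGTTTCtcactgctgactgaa
Oas1a promoter, chr5:120907526-120907585, - strand: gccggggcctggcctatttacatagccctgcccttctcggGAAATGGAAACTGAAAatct
Isg15 promoter, chr4:156200856-156200915, - strand: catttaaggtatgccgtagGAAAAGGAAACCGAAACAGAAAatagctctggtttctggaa
Ifit1 holds 2 separate matches, and in Oas1a and Isg15 the capitals cover overlapping ones. Over all members with a window, 21 of 31 (67.7%) held the paired GAAA motif on either strand, with overlapping matches allowed, against 3.99% of the 27025 genes. TTCNNNGAA was held by 11 of 31 (35.5%), against 9.55%.

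**Figure D4:**
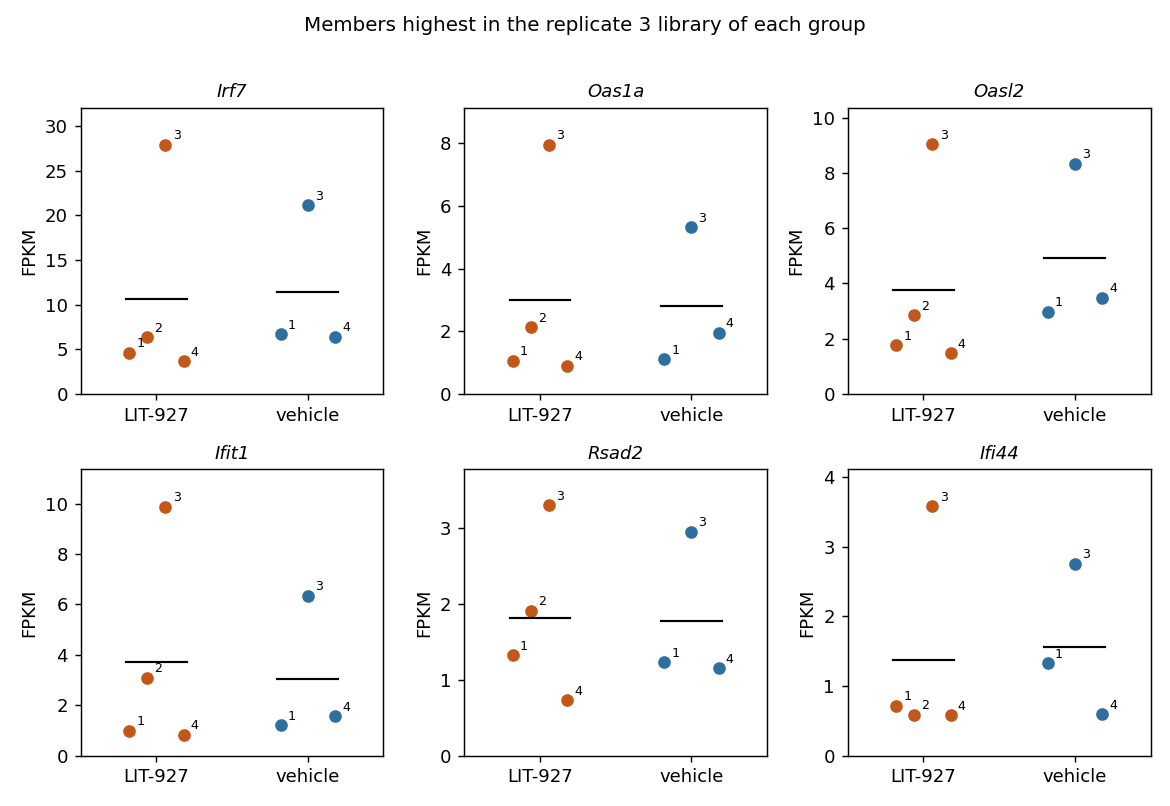
FPKM of 6 of the 12 members that were high in both replicate 3 libraries, in each library (points, numbered by replicate), with the group mean (line). In every panel the 2 replicate 3 points are the highest of the 7.

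The rest of the pathway was read from 53 other measured genes. Of these, 34 were lower and 19 higher by mean in LIT-927, with a median difference of -0.11. At an unadjusted p under 0.05, 10 were lower, against 2.96% of all genes, and 0 were higher, against 0.718%. Every LIT-927 library lay below every vehicle library in 7 of the 53, against 2.12% of all genes, and above in 0, against 1.08%. Of the ligands Ifng alone had a row, with 0, 0, 0 and 0.0237 FPKM in LIT-927, against 0.0491, 0 and 0.281 FPKM in vehicle. It rested on at most 1 fragment in a LIT-927 library and at most 12 in a vehicle library, too few for a comparison. The receptor genes Ifnar1, Ifnar2, Ifngr1 and Ifngr2 differed by -0.05, 0.10, -0.31 and -0.13 in log2(FPKM + 1), each less than its standard error.

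The 5 pathway genes with the smallest p were among those 7, and none passed the adjusted threshold. Gbp10, a further GBP, had 0.0694, 0.0521, 0.0177 and 0.0163 FPKM in LIT-927, against 0.530, 0.360 and 1.12 FPKM in vehicle, on 2 to 8 and 43 to 139 fragments. Ifi27l2a, a small interferon-induced membrane protein gene, had 5.79, 5.82, 4.83 and 5.94 FPKM in LIT-927, against 12.8, 10.8 and 9.15 FPKM in vehicle.

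Cxcl9, which encodes a chemokine that draws CXCR3-bearing T cells and is induced by interferon-γ, had 0.295, 1.52, 0.590 and 1.06 FPKM in LIT-927, against 4.25, 2.18 and 9.62 FPKM in vehicle. Its difference, -1.64 on the log2(FPKM + 1) scale (SE 0.43, limma adjusted p = 0.998), was lower than that of any member. Ifi204, of the interferon-inducible p200 family, and Ikbke, a kinase that activates IRF3, completed the 5, at -0.45 (SE 0.15) and -0.47 (SE 0.19).

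Most markers of leukocytes, and of stroma and prostate luminal cells too, were lower with the GBPs, while those of other glands and ducts were mixed or higher. Ptprc, which encodes the pan-leukocyte protein CD45, had 0.657, 1.04, 0.456 and 1.11 FPKM in LIT-927, against 3.23, 1.32 and 2.63 FPKM in vehicle, and was also separate between the groups. All 12 T and NK cell markers and 11 of 12 macrophage and monocyte markers had a lower mean in LIT-927. The T and NK cell markers summed to 1.94 to 9.04 FPKM in LIT-927 libraries and to 7.24 to 18.6 FPKM in vehicle libraries, with Klrb1c and Prf1 at 0 in at least 1 library. The macrophage and monocyte markers summed to 56.2 to 159 FPKM in LIT-927 libraries and to 152 to 411 FPKM in vehicle libraries. Endothelial markers were lower by mean in 8 of 8, with sums of 4.45 to 39.0 FPKM in LIT-927 libraries and 21.1 to 84.4 FPKM in vehicle libraries. Fibroblast markers (6 of 6, median difference -0.80), smooth muscle markers (6 of 6, -0.79) and prostate luminal markers (6 of 6, -1.73) were lower by mean log2(FPKM + 1) as well. On that scale Ptprc differed by -0.87. The median was -0.94 for macrophage and monocyte markers, -0.74 for endothelium and -0.58 for T and NK cell markers. Only 3 of the 12 T and NK cell markers reached 1 FPKM in at least 3 libraries, and this scale understates the change of low genes. Fibroblast markers summed to 59.4 to 210 FPKM in LIT-927 libraries and 79.5 to 439 FPKM in vehicle libraries, and smooth muscle markers to 850 to 5616 FPKM in LIT-927 libraries and 2793 to 9922 FPKM in vehicle libraries. Luminal markers summed to 5871 to 165826 FPKM in LIT-927 libraries and to 9733 to 74094 FPKM in vehicle libraries, so all of these sums overlapped. In mean FPKM, 4 of the 6 luminal markers were lower in LIT-927. Seminal vesicle markers were lower by mean log2(FPKM + 1) in 4 of 7 (median difference -0.88). Vas deferens and epididymis markers were lower in 0 of 5 on that scale (median difference 0.69).

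The summed FPKM of the 6 GBPs per FPKM of Ptprc was 16.8, 10.6, 8.43 and 10.1 in LIT-927, against 11.3, 12.1 and 14.7 in vehicle. This ratio overlapped between the groups, with means of 11.5 ± 3.68 in LIT-927 (SD, n = 4) and 12.7 ± 1.80 in vehicle (SD, n = 3), whereas the sum itself did not overlap. Per summed T and NK cell marker FPKM, the GBP sum was 5.71, 3.25, 0.425 and 5.40 in LIT-927, against 4.37, 2.21 and 2.09 in vehicle, with a higher mean in LIT-927. The T and NK cell sum leaned on Gzmb in some libraries. Gzmb had 0.162, 0.121, 4.24 and 0.0948 FPKM in LIT-927, against 0.177, 2.29 and 3.75 FPKM in vehicle. The whole sum in LIT-927 replicate 3 was 9.04 FPKM. The summed FPKM of the 7 IRGs per FPKM of Ptprc averaged 39.3 ± 15.0 in LIT-927 (SD, n = 4) and 27.8 ± 13.3 in vehicle (SD, n = 3). All 3 ratios overlapped between the groups. In bulk tissue, fewer cells of a type and less RNA per cell cannot be told apart. Plasmacytoid dendritic cell markers, 5 of 6 lower by mean, summed to 8.43 to 28.1 FPKM in LIT-927 libraries and to 8.94 to 27.3 FPKM in vehicle libraries, with Ccr9, Klk1 and Spib at 0 in at least 1 library. Nearly all of that sum was Ly6d, at 27.9 FPKM in LIT-927 replicate 3 and 26.3 FPKM in vehicle replicate 3. The other 5 of these markers summed to 0.0776, 0.386, 0.203 and 0.298 FPKM in LIT-927, against 1.14, 1.02 and 0.245 FPKM in vehicle, so replicate 3 was highest in neither group. The urothelial markers summed to 328 FPKM in LIT-927 replicate 3 and 264 FPKM in vehicle replicate 3, the highest of each group, with Upk3a at 0 in at least 1 library. The prostate luminal markers summed to 165826 FPKM in LIT-927 replicate 3 and 74094 FPKM in vehicle replicate 3, also the highest of each group. The part of either marker list in the 12 members that were high there was not tested.

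**Figure D5:**
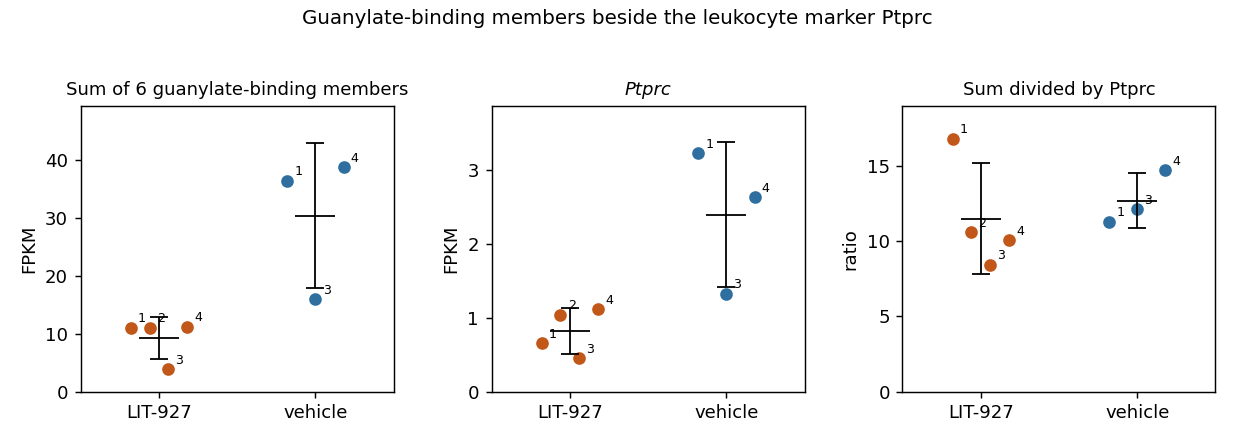
Summed FPKM of the 6 GBP members, FPKM of Ptprc, and the sum divided by Ptprc, in each library (points, numbered by replicate), with mean (long line) and SD (whiskers). The sum (3.85 to 11.2 FPKM in LIT-927, 16.0 to 38.8 FPKM in vehicle) and Ptprc separate the groups, and their ratio does not.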

How the data were processed

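RNA from 7 mouse prostate samples was sequenced, 4 from LIT-927 and 3 from vehicle mice, grouped by the treatment in the labels. Per the submitters' processing notes, fastp, HISAT2, HTSeq and the build mm10 were used. No source names their versions, the annotation or the strand setting. The authors deposited 1 FPKM value per gene and library. The file headers do not name the unit, which was worked out from the values: within each gene they are whole multiples of 1 fragment, recovered for all 16019 genes within 0.01 fragments. FPKM are relative to the library, and the 10 most abundant genes took 22.2% to 72.3% of them, so median-of-ratios scaling was an alternative.

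Differences came from R 4.3.3 and limma 3.58.1. The fit used log2(FPKM + 1), a trended prior variance, no covariate and Benjamini-Hochberg adjustment over all genes, two-sided. This scale understates the change of low genes. The members and lists were chosen with earlier results of these data known. Values in every library are given for the 4 transcription factors, the 12 members with the smallest p and the most abundant member of each role group. Of other pathway genes, Ifng, 4 receptor genes and the 5 with the smallest p are named, and 1 further gene of that rule is not reported here. In simulated data, 200 of the 16019 genes were changed. Fragments were drawn with the same assumed spread for every gene rather than the spread seen in these data, and the changed genes could be low in FPKM. The share called was 0% for a log2 change of 1, 0% for 2 and 77% for 3. Alternatives were a pseudocount of 0.1, at least 1 FPKM in 3 libraries (38 of the 41 members pass), both scalings, voom on recovered fragments, library weights, a fit with the replicate number as a block, and fits without each library in turn and without both replicate 3 libraries. The fit without that pair with median-of-ratios scaling was added after the data were seen. Promoter windows are from RefSeq. Python 3.11.15 with pandas 2.3.3 and matplotlib 3.10.9 made the tables and plots.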

Additional observations from a re-analysis of the deposited data

Results flagged for a closer look

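In 7 of 52 groups of 4 LIT-927 libraries that were checked, 1 library lay far from the other 3 by Dixon's criterion, which chance meets in about 1 of 20. In LIT-927 replicate 3, Irf7 stood at 27.9 FPKM, against 3.67 to 6.35 FPKM in the others. Oas2 stood there at 0.260 FPKM, against 0.0633 to 0.0901 FPKM. Ifi44 stood at 3.58 FPKM, against 0.582 to 0.717 FPKM, and Usp18 at 7.42 FPKM, against 1.09 to 2.13 FPKM. These 4 were thus high in the library that also held the most Upk1a and the most Sbp. Ifi27l2a was the low one there, at 4.83 FPKM against 5.79 to 5.94 FPKM. In LIT-927 replicate 4, Isg15 stood low at 4.10 FPKM, against 7.89 to 8.62 FPKM, and Ifng was listed at 0.0237 FPKM, which is 1 fragment, with the others at 0. With 3 values at 0 this last one meets the criterion by construction.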

How the results depend on the processing

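The 6 GBPs, with 15 further members, stayed below 0 in all alternatives, Irf9 stayed above 0, and 19 members changed sign in at least 1. Members passing the adjusted threshold numbered 1 of 41 with library weights instead of 0, and other pathway genes 4 of 53 instead of 0. Of all genes, 2.91% passed with library weights, instead of 0%. Gbp6 and, of the named genes, Gbp10 (-0.42) and Ifi27l2a (-0.81) each had a limma adjusted p of 0.0487 there. Members lower at an unadjusted p under 0.05 numbered 20 with library weights (15.1% of all genes), 12 with the replicate block (3.45%), 13 without both replicate 3 libraries (2.67%), 12 without them and scaled (5.8%), and 6 to 12 over single libraries left out (1.56% to 8.02%), against 7 (2.96%). Members with separate groups numbered 21 without both replicate 3 libraries (5.2% of all genes), 19 without them and scaled (13%), and 7 to 15 over single libraries left out (2.5% to 16.8%; 15 without LIT-927 replicate 3, with 3.29%, and 14 without vehicle replicate 3, with 4.05%), against 7 (2.12%). The median difference over members was -0.59 with voom, -0.59 without both replicate 3 libraries and scaled, and -0.50 (without LIT-927 replicate 3) to -0.29 over single libraries left out, against -0.37. The median of all genes shifted by up to 0.138 in some of these. The cause was not tested.

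Of the genes given with values in every library and the receptors, those that reversed were Ddx58 with upper-quartile scaling (-0.0019) and with the block (-0.0127), Ifngr2 with the block (0.0917), and with library weights Iigp1 (0.0132), Parp9 (0.37), Ifnar1 (0.10) and Ifngr1 (0.24). Without both replicate 3 libraries Parp9 was 0.09, Ifnar1 0.08 and Ifngr1 0.07, while Ddx58 kept its sign at 0.2283. Over single libraries left out, Ifnar2 ranged from -0.10 to 0.36, Ddx58 from -0.04 to 0.15, Ifngr2 from -0.57 to 0.19, Parp9 from -0.15 to 0.21, Ifnar1 from -0.20 to 0.13, Ifngr1 from -0.66 to 0.18, Isg15 from -0.24 to 0.11 and Irf7 from -0.90 to 0.20.

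The labels do not say whether samples with the same replicate number are paired. Deviations from group means correlated across 11060 genes at 0.575, 0.743 and -0.127 for numbers 1, 3 and 4. LIT-927 replicate 4 correlated best with vehicle replicate 1 (0.626). Deviations within a group sum to 0, which ties these correlations together, so they cannot settle whether the numbers pair the samples. Changes of 1 and 2 on the log2 scale were not recovered in simulated data, whose assumed spread is not that of these libraries. With 4 and 3 libraries, a p that misses the threshold shows little.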

Other observations

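Samd9l, an interferon-induced antiviral gene picked after its values were seen, ran opposite to most of the pathway by mean, with 14.2, 16.6, 1.94 and 7.63 FPKM in LIT-927, against 6.90, 3.66 and 3.78 FPKM in vehicle. It overlapped between the groups because of LIT-927 replicate 3, with a difference in log2(FPKM + 1) of 0.69 (SE 0.61, limma adjusted p = 0.998). The summed FPKM of the 7 IRGs spanned 16.6 to 49.6 over LIT-927 libraries and 30.7 to 113 over vehicle libraries.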
